A study of Rattus norvegicus with 9 samples.

Results

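The genes described here are 47 genes of the lysosome, chosen by name. The rule does not use group values, but the list was drawn up with earlier results of these data known. It holds 12 proteases (11 cathepsins and legumain), 9 glycosidases and lipid hydrolases, the luminal proteins Psap and Npc2 and 7 membrane proteins. It also holds the transcription factors Tfeb and Mitf, and 15 subunits and accessory proteins of the vacuolar proton pump (V-ATPase). Of the 47 genes, 45 were measured, among 14506 genes that the array's annotation ties to a probe set with a single symbol. Ctso and Naglu were not analysed here. RNA came from a muscle of the lower leg, the tibialis anterior (TIB), taken from male rats of the Sprague Dawley strain, which were young adults kept singly with water at all times, and each rat gave 1 Affymetrix Rat Gene 1.0 ST array. The 9 rats fall into 3 groups of 3: Fed rats, killed with a full stomach; rats fasted until phase 2 of fasting (P2), the phase of slow and regular mass loss in which lipids are the main fuel and body protein is spared; and rats fasted until phase 3 (P3), killed the day after mass loss began to accelerate with the mobilization of body protein. The phases were told by daily weighing, and P3 rats had fasted longer than P2 rats, so phase and duration of fasting cannot be told apart. Intensities had been normalized between arrays, and every value below is a log2 intensity, in which a difference of 1 is a 2-fold difference. Replicates are separate rats, and both fasting groups are set against the same 3 fed rats.

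Lysosomes are acid compartments in which proteins, glycogen, lipids and whole organelles are broken down after delivery by autophagy or endocytosis. The V-ATPase, a rotary pump with a cytosolic ATP-splitting part (V1) and a proton channel in the membrane (V0), keeps them acid, and most of the hydrolases work only at that pH. In skeletal muscle, the autophagy-lysosome route works beside the ubiquitin-proteasome system in the loss of fiber protein. The factors TFEB and MITF belong to a family that binds a palindromic DNA element, an extended E-box, found before many lysosomal genes.

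Part of these transcripts were far higher in fasted than in fed rats, and others were lower. In P3, the glycoprotein Gpnmb was 31.6-fold higher than in fed rats, the protease Ctsl 6.68-fold, the pump subunit Atp6v1h 4.33-fold and the protease Lgmn 3.1-fold, while Ctsh was 2-fold lower, Gla 1.89-fold and Lipa 1.78-fold. In P3 versus Fed, 18 of the 45 measured genes were higher (40%, beside 15.8% of all 29215 probe sets) and 8 were lower (17.8%, beside 13.4% of all probe sets). In P2 versus Fed the counts were 7 higher (15.6%, beside 5.13%) and 2 lower (4.44%, beside 4.15%). Between the phases, 16 genes were higher in P3 than in P2 (35.6%, beside 8.5%) and 3 were lower (6.67%, beside 7.52%). Over the 14506 genes with a symbol, which match the members more closely than all probe sets do, the shares called higher and lower were 18.2% and 17.1% for P3 against Fed, 7.07% and 5.57% for P2 against Fed, and 11.4% and 10.4% between P3 and P2. The members' shares of lower genes lay near or under this background, and those of higher genes above it. The list was drawn up with earlier results of these data known, so these shares are a description. The median log2 fold change of the 45 genes was 0.15 in P2 and 0.17 in P3 versus Fed, beside 0.01 and 0.0 over all probe sets, and single genes ran from -1.0 to 4.98 in P3. A call here is an adjusted p under 0.05 in limma's test, fitted to all 9 arrays and adjusted by the Benjamini-Hochberg method over the 29215 probe sets of a comparison; values after ± are standard errors for fold changes and SDs for levels, with 3 rats per group. Without Fed replicate 2 the count of genes higher in P2 was 4, and without any 1 of the fed arrays the count of lower genes was 0. These are bulk samples, in which fewer cells of a type and less RNA per cell cannot be told apart.

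**Figure D1:**
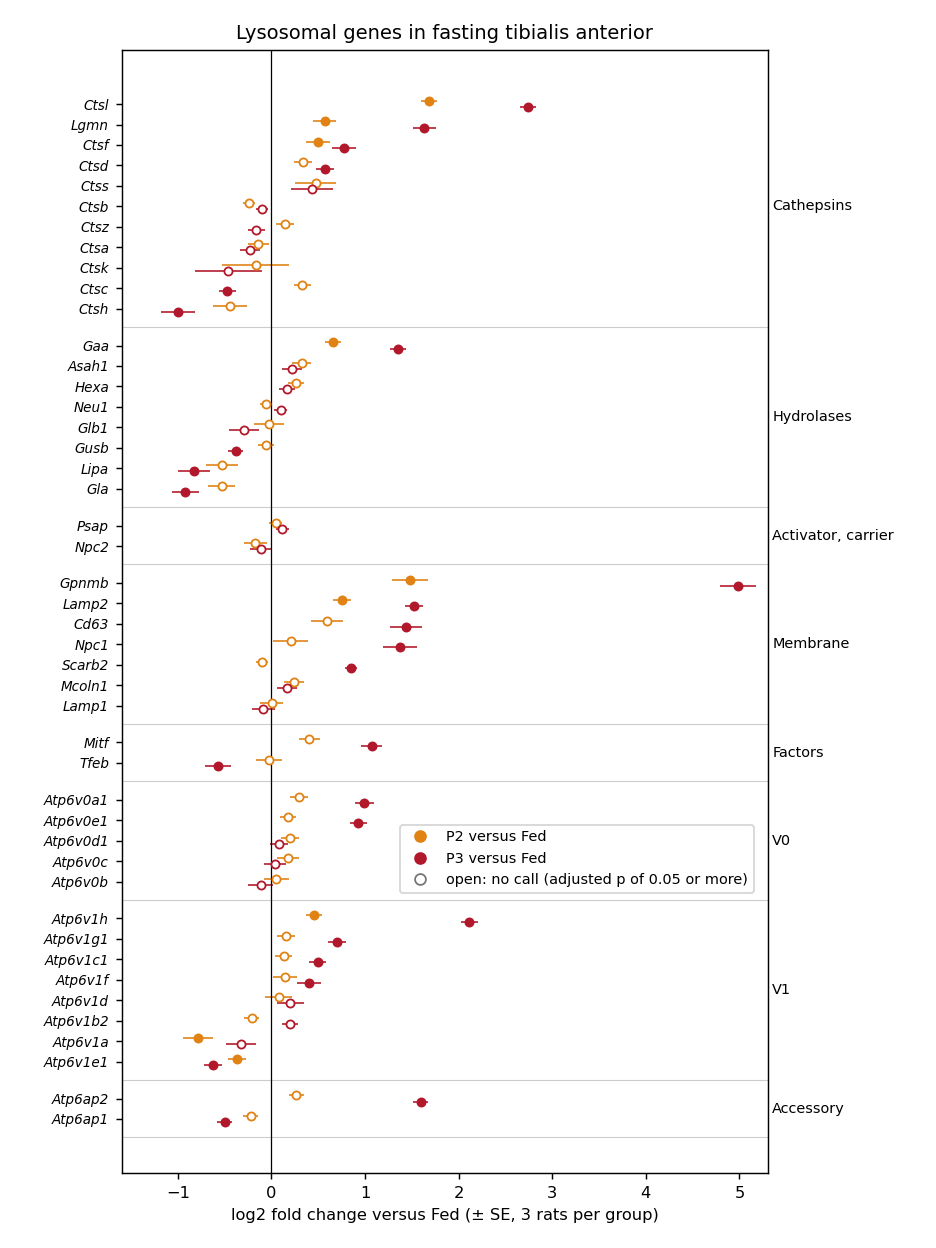
Log2 fold change from the fed rats (x axis, ± SE, 3 rats per group) of the 45 measured genes in P2 and in P3, ordered by role and by the P3 value (y axis); filled points passed the test. Gpnmb lies at 4.98 in P3 and Ctsh at -1.0.

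By role, the calls divided as follows. Of all 14506 genes, 18.2% were called higher and 17.1% lower in P3 versus Fed. Of the 7 membrane proteins, 5 were called higher in P3 than in fed rats (71.4%) and 0 lower, with a median log2 fold change of 1.37. The V-ATPase had 7 of 15 genes higher (46.7%) and 2 lower (13.3%), with a median of 0.20. Among the 11 measured proteases, 4 were higher (36.4%) and 2 lower (18.2%), and their median was -0.10. The 8 measured glycosidases and lipid hydrolases had 1 higher (12.5%) and 3 lower (37.5%), with a median of -0.10. The shares of lower V-ATPase genes and proteases lay near or under that of all genes. No test compared these roles with each other, so the medians are a description. Of the 45 genes, 6 rose in P2 and again from P2 to P3 (Ctsl, Lgmn, Gaa, Lamp2, Gpnmb and Atp6v1h), and 9 had no call in P2 and were higher in P3 than in both other groups (Scarb2, Cd63, Npc1, Mitf, Atp6v0a1, Atp6v0e1, Atp6v1c1, Atp6v1g1 and Atp6ap2). Another 3, Ctsc, Gusb and Tfeb, were lower in P3 than in both other groups. For 17 genes no comparison gave a call. These patterns were counted among the 45 genes only, so their frequency over all genes is not known here. Of all 14506 genes, 7.07% were called higher in P2 versus Fed. Between P3 and P2, 11.4% of all genes were called higher and 10.4% lower.

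**Figure D2:**
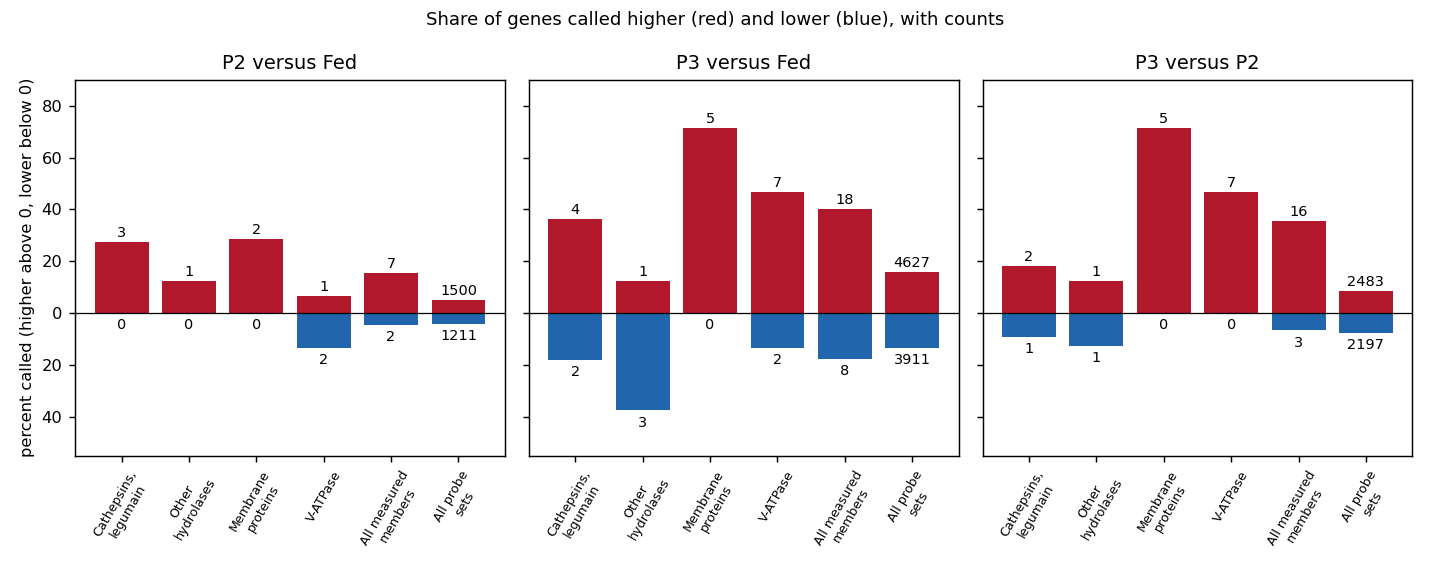
Percent of genes called higher (above 0) and lower (below 0) on the y axis, for the 3 comparisons of groups of 3 rats. Bars (x axis) are the proteases, other hydrolases, membrane proteins, V-ATPase, all 45 measured genes and all 29215 probe sets. The counts stand at the bars, and the transcription factors and luminal proteins have no bar of their own. In P3 versus Fed, 5 of 7 membrane proteins and 7 of 15 V-ATPase genes were higher, and 3 of 8 other hydrolases were lower.

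The 2 transcription factors of the list moved in opposite directions. Tfeb, the factor best known for turning on lysosomal genes when nutrients are short, had log2 intensities of 7.89, 8.07 and 8.20 in the fed rats, 8.28, 7.94 and 7.88 in P2 and 7.28, 7.58 and 7.60 in P3. The P3 rats lay below all others, and the fed and P2 rats overlapped. Its log2 fold change was -0.57 ± 0.14 (adjusted p = 0.0119) in P3 versus Fed, -0.54 ± 0.14 (adjusted p = 0.025) in P3 versus P2 and -0.02 ± 0.14 (adjusted p = 0.947) in P2 versus Fed. Mitf, a related factor that also works in melanocytes and osteoclasts, had 7.95, 7.99 and 8.22 in the fed rats, 8.43, 8.38 and 8.57 in P2 and 8.94, 9.27 and 9.16 in P3, with no overlap between any of the groups. It rose by 1.07 ± 0.11 (adjusted p = 8.68e-05) in P3 versus Fed and by 0.66 ± 0.11 (adjusted p = 0.00309) in P3 versus P2, and the P2 versus Fed value was 0.41 ± 0.11 (adjusted p = 0.0526). The P3 versus P2 call of Tfeb was lost without P2 replicate 1 or P3 replicate 1 (adjusted p = 0.0631 and 0.0842), and a P2 versus Fed call of Mitf appeared without Fed replicate 3 or P3 replicate 1 (adjusted p = 0.0461 and 0.0388). The array measures transcripts, not where the proteins are in the cell.

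The DNA letters that factors of this family recognize were looked for in the promoters of the genes, taken from RefSeq (build GRCr8) as the 250 bases before and the 50 bases after each gene's start; a promoter was found for 40 of the 47 genes, 38 of them among the 45 measured. The E-box core CACGTG, which reads the same on both strands, stood in 9 of 40 (22.5%) of these promoters, beside 15 of 76 (19.7%) of those of the other lysosomal genes described further on and 2148 of 33469 (6.42%) of all promoters. Its extended form TCACGTGA, a part of those matches, stood in 5 of 40 (12.5%), beside 7 of 76 (9.21%) of the other lysosomal genes and 260 of 33469 (0.777%) of all. The core of the FOXO element, GTAAACA, searched on both strands, stood in 1 of 40 (2.5%), beside 3 of 76 (3.95%) of the other lysosomal genes and 1265 of 33469 (3.78%) of all. Of the measured genes with a promoter, the E-box core stood in 5 of 16 that were higher in P3 than in fed rats, in 4 of 14 with no call and in 0 of 8 that were lower. A match is a description of the letters, not a bound site. The stretches that follow end before the start of the gene, with the match in capitals. They are examples from 3 genes that rose in P3 (Ctsd, Gaa and Gpnmb, the last with the only FOXO core). Lamp1 and Atp6v0d1 are examples with the extended E-box before the start and no call. Ctsf and Cd63 also rose in P3 with an E-box core before the start, and are not shown. The promoter of Lamp1 holds 5 cores and 2 extended forms, of which the extended form nearest the start is shown.
Ctsd, GRCr8 chr1:206968822-206968852, minus strand: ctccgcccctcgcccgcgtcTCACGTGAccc
Gaa, GRCr8 chr10:105028268-105028313, plus strand: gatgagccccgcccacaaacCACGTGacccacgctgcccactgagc
Gpnmb, GRCr8 chr4:79340999-79341045, plus strand: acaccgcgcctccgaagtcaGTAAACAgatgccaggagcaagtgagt
Lamp1, GRCr8 chr16:83075075-83075122, minus strand: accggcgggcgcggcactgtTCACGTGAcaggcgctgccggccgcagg
Atp6v0d1, GRCr8 chr19:50357274-50357321, minus strand: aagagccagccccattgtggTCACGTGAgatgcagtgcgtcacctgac

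Among the proteases, Ctsl changed most. It codes cathepsin L, a cysteine protease that is a familiar marker of muscle wasting, and had log2 intensities of 9.55, 9.36 and 9.60 in the fed rats, 11.22, 11.26 and 11.08 in P2 and 12.28, 12.15 and 12.30 in P3, so that the 3 groups were far apart and each was narrow. The log2 fold change was 1.68 ± 0.09 (adjusted p = 7.35e-05) in P2 versus Fed, 2.74 ± 0.09 (adjusted p = 2.1e-07) in P3 versus Fed and 1.06 ± 0.09 (adjusted p = 7.68e-05) in P3 versus P2, which is 3.21-fold in P2 and 6.68-fold in P3 against fed rats. In order of the P3 versus Fed change, Ctsl stood at place 58 of the 14506 genes, and at place 41 in P2 versus Fed. Lgmn, the legumain that cuts after asparagine and processes other lysosomal proteases, had 8.34, 8.32 and 8.51 in the fed rats, 9.19, 8.87 and 8.81 in P2 and 9.86, 10.19 and 10.01 in P3. No groups overlapped, and the larger step came after P2: the log2 fold change was 0.57 ± 0.12 (adjusted p = 0.0222) in P2 versus Fed and 1.07 ± 0.12 (adjusted p = 0.000435) in P3 versus P2. The P2 call of Lgmn was lost without Fed replicate 1 or 2 (adjusted p = 0.0738 and 0.0854).

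Ctsf, another cysteine cathepsin, had log2 intensities of 8.0, 7.82 and 7.92 in the fed rats, 8.53, 8.36 and 8.33 in P2 and 8.48, 8.98 and 8.61 in P3. All fasted rats lay above all fed rats, and P2 and P3 overlapped. It rose by 0.78 ± 0.13 (adjusted p = 0.00155) in P3 versus Fed, and its P2 value, 0.49 ± 0.13 (adjusted p = 0.0452), passed the test narrowly: leaving out any of 7 single arrays ended that call (adjusted p from 0.069 to 0.152), namely each fed array, each P2 array and P3 replicate 3. Ctsd, cathepsin D, the main aspartic protease of lysosomes, rose by 0.58 ± 0.10 (adjusted p = 0.0017) in P3 versus Fed, with 11.18, 11.42 and 11.37 in the fed rats, 11.73, 11.71 and 11.55 in P2 and 11.76, 11.93 and 12.0 in P3. Its P2 values lay between those of the other groups, at 0.34 ± 0.10 (adjusted p = 0.0632) versus Fed.

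The proteases Ctsh and Ctsc fell in P3. Ctsh, cathepsin H, which trims proteins from their amino end, had log2 intensities of 9.64, 9.42 and 9.87 in the fed rats, 9.19, 9.51 and 8.90 in P2 and 8.67, 8.41 and 8.87 in P3. P3 rats lay below the others, whereas fed and P2 rats overlapped, and P2 replicate 3 was the lowest of the P2 rats. Ctsh fell by 1.0 ± 0.18 (adjusted p = 0.00272) in P3 versus Fed, and P3 against P2 gave -0.55 ± 0.18 (adjusted p = 0.0767). Ctsc, the dipeptidyl peptidase that activates the granule proteases of immune cells, had 9.54, 9.54 and 9.60 in the fed rats, 9.70, 10.02 and 9.94 in P2 and 9.03, 9.06 and 9.18 in P3. It was highest in P2 and lowest in P3, with no overlap: it fell by 0.80 ± 0.09 (adjusted p = 0.000407) in P3 versus P2 and by 0.47 ± 0.09 (adjusted p = 0.00381) in P3 versus Fed, while the P2 versus Fed value was 0.33 ± 0.09 (adjusted p = 0.0566). That P2 value passed the test without P2 replicate 1 (adjusted p = 0.0115), and the P3 versus P2 value of Ctsh without P2 replicate 3 (adjusted p = 0.0402).

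The remaining 5 proteases gave no call in any comparison. Ctsb, cathepsin B, which like cathepsin L is an abundant cysteine protease, had 10.61, 10.63 and 10.73 in the fed rats, 10.36, 10.47 and 10.42 in P2 and 10.56, 10.56 and 10.55 in P3. Its P2 rats were the lowest, by a small margin and with no overlap, with a log2 fold change of -0.24 ± 0.06 (adjusted p = 0.0521) in P2 versus Fed and -0.10 ± 0.06 (adjusted p = 0.324) in P3 versus Fed. For Ctsa, a carboxypeptidase that protects other hydrolases, the P3 versus Fed value was -0.23 ± 0.11 (adjusted p = 0.16), and for Ctsz, another carboxypeptidase, -0.16 ± 0.09 (adjusted p = 0.245). Ctsk, the collagen-cutting cathepsin of osteoclasts, had -0.46 ± 0.36 (adjusted p = 0.398), and Ctss, the cathepsin of antigen-presenting cells, 0.44 ± 0.22 (adjusted p = 0.191). These 2 genes were the most variable between rats of a group: Ctsk spanned 6.48 to 7.86 in P3, and Ctss 6.75 to 7.47 in fed rats.

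**Figure D3:**
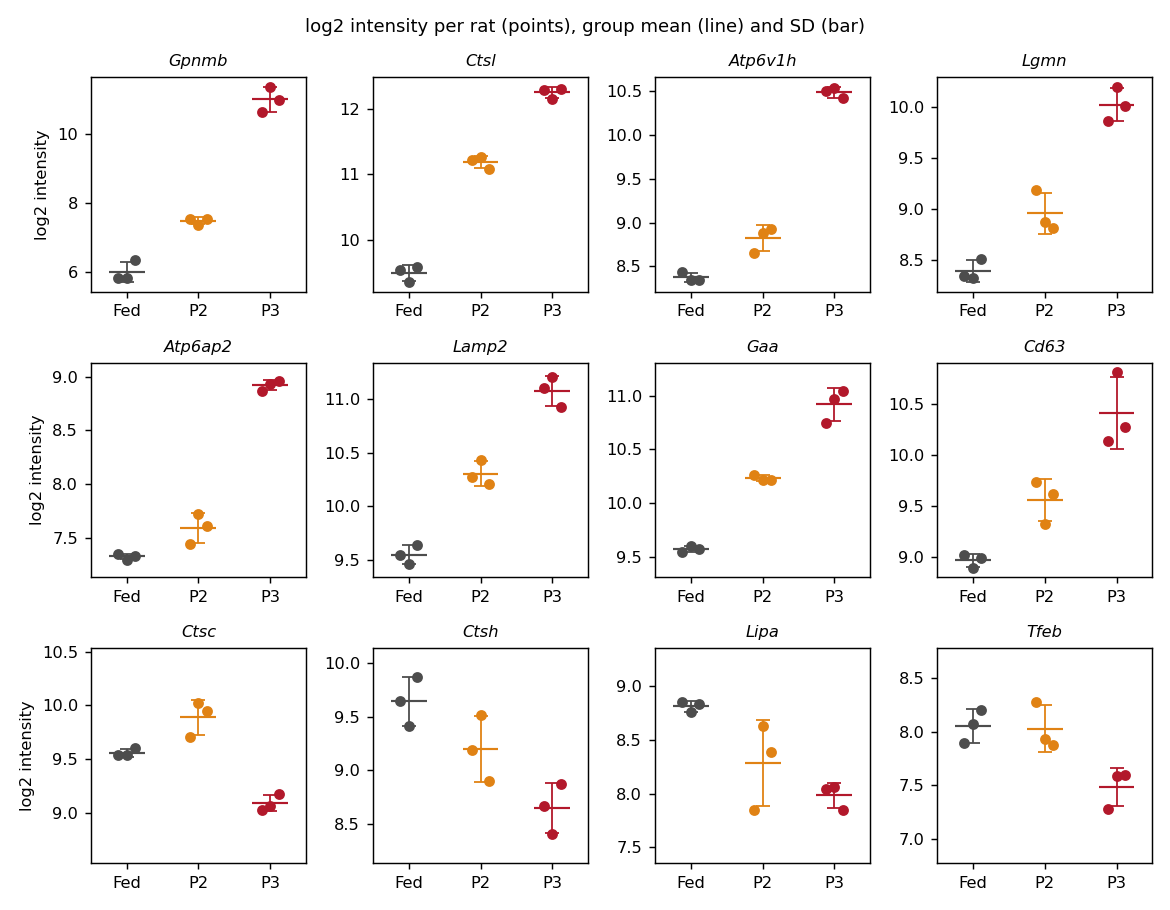
Log2 intensity (y axis) of 12 genes in each rat of the Fed, P2 and P3 groups (x axis, 3 rats per group); the line is the group mean and the bar its SD, and each panel has its own scale. Gpnmb averaged 6.0 ± 0.29 (Fed), 7.48 ± 0.10 (P2) and 10.99 ± 0.36 (P3), and Ctsc was lowest in P3.

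Among the 8 measured glycosidases and lipid hydrolases of the list, Gaa was the only one called higher. It codes the acid alpha-glucosidase that breaks down lysosomal glycogen, whose loss in humans causes Pompe disease, and had log2 intensities of 9.54, 9.60 and 9.57 in the fed rats, 10.27, 10.22 and 10.22 in P2 and 10.75, 10.97 and 11.04 in P3. Rats of a group lay close together and the groups were apart. It rose by 0.66 ± 0.08 (adjusted p = 0.0018) in P2 versus Fed, by 1.35 ± 0.08 (adjusted p = 4.62e-06) in P3 versus Fed and by 0.69 ± 0.08 (adjusted p = 0.000564) in P3 versus P2.

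Of the other measured enzymes of this role, 3 fell in P3. Gla, the alpha-galactosidase that is missing in Fabry disease, had 7.18, 7.15 and 7.26 in the fed rats, 6.34, 6.83 and 6.83 in P2 and 6.32, 6.45 and 6.07 in P3. All fasted rats were below the fed rats; it fell by 0.92 ± 0.15 (adjusted p = 0.00125) in P3 versus Fed, and the P2 value was -0.53 ± 0.15 (adjusted p = 0.0564). Lipa, the acid lipase that frees cholesterol and fatty acids from their esters, had 8.85, 8.76 and 8.84 in the fed rats, 7.84, 8.63 and 8.39 in P2 and 8.05, 8.06 and 7.85 in P3. P2 replicate 1 was as low as the P3 rats while the other P2 rats were higher, and Lipa fell by 0.83 ± 0.17 (adjusted p = 0.00581) in P3 versus Fed, with a P2 value of -0.53 ± 0.17 (adjusted p = 0.104). Gusb, the beta-glucuronidase, had 5.84, 5.96 and 6.03 in the fed rats, 5.91, 5.84 and 5.89 in P2 and 5.56, 5.45 and 5.67 in P3, close to the array medians. It fell by 0.38 ± 0.08 (adjusted p = 0.00603) in P3 versus Fed and by 0.32 ± 0.08 (adjusted p = 0.0239) in P3 versus P2.

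For Lipa, leaving out P2 replicate 2 gave a P2 versus Fed call (adjusted p = 0.0343) and leaving out P2 replicate 1 a P3 versus P2 call (adjusted p = 0.0103), as it did for Gla (adjusted p = 0.0125). The P3 versus P2 call of Gusb was lost without P2 replicate 1 or 3 or P3 replicate 1 or 2 (adjusted p from 0.06 to 0.077). The other 4 enzymes had no call: the P3 versus Fed value was -0.29 ± 0.16 (adjusted p = 0.226) for Glb1, the beta-galactosidase, 0.17 ± 0.08 (adjusted p = 0.179) for Hexa, a hexosaminidase subunit, 0.10 ± 0.07 (adjusted p = 0.328) for the sialidase Neu1 and 0.22 ± 0.11 (adjusted p = 0.173) for the acid ceramidase Asah1. The luminal helper proteins had none either. Psap, the precursor of the saposins that lipid hydrolases need, had 12.39, 12.38 and 12.34 in the fed rats, 12.33, 12.50 and 12.40 in P2 and 12.45, 12.44 and 12.57 in P3, with the P3 rats slightly above the fed rats, and its P3 versus Fed value was 0.12 ± 0.07 (adjusted p = 0.273). Npc2, which carries cholesterol inside the lysosome, had 8.78, 9.06 and 9.14 in the fed rats, 8.95, 8.90 and 8.62 in P2 and 8.84, 8.95 and 8.86 in P3, with overlap of all groups and a P3 versus Fed value of -0.11 ± 0.12 (adjusted p = 0.546).

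The largest increase was that of a membrane protein. Gpnmb, a glycoprotein of lysosomes and melanosomes, had log2 intensities of 5.83, 5.84 and 6.34 in the fed rats, 7.54, 7.37 and 7.54 in P2 and 10.64, 11.35 and 10.97 in P3. The steps did not overlap, and the second was the larger: the log2 fold change was 1.48 ± 0.19 (adjusted p = 0.0021) in P2 versus Fed and 3.50 ± 0.19 (adjusted p = 9.31e-06) in P3 versus P2. The P3 versus Fed value of 4.98 ± 0.19 (adjusted p = 4.11e-07) put it at place 5 of the 14506 genes. Lamp2, a main protein of the lysosomal membrane that is needed for fusion with autophagosomes, had 9.54, 9.46 and 9.64 in the fed rats, 10.27, 10.43 and 10.20 in P2 and 11.10, 11.20 and 10.93 in P3. It rose by 0.75 ± 0.10 (adjusted p = 0.00198) in P2 versus Fed and by 0.78 ± 0.10 (adjusted p = 0.000667) in P3 versus P2, steps of nearly the same size, and was 2.88-fold higher in P3 than in fed rats.

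Its relative Lamp1 had no call, with 10.39, 10.53 and 10.72 in the fed rats, 10.67, 10.47 and 10.50 in P2 and 10.24, 10.50 and 10.63 in P3, overlap of all groups and a P3 versus Fed value of -0.09 ± 0.12 (adjusted p = 0.662). Cd63, a tetraspanin of late endosomes and lysosomes, had 9.02, 8.90 and 8.99 in the fed rats, 9.73, 9.33 and 9.61 in P2 and 10.14, 10.80 and 10.28 in P3. P3 replicate 2 was the highest, and no groups overlapped. Cd63 rose by 1.44 ± 0.17 (adjusted p = 0.000207) in P3 versus Fed and by 0.85 ± 0.17 (adjusted p = 0.00852) in P3 versus P2, and its P2 value was 0.59 ± 0.17 (adjusted p = 0.0666), which passed without P3 replicate 2 (adjusted p = 0.0173). Npc1, the membrane protein that exports cholesterol from lysosomes, had 8.06, 8.41 and 8.50 in the fed rats, 8.41, 8.68 and 8.51 in P2 and 9.52, 10.11 and 9.47 in P3, with fed and P2 rats overlapping. It rose by 1.37 ± 0.18 (adjusted p = 0.00043) in P3 versus Fed and by 1.17 ± 0.18 (adjusted p = 0.00233) in P3 versus P2.

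Scarb2, the receptor that brings glucocerebrosidase to the lysosome, had 10.75, 10.79 and 10.83 in the fed rats, 10.62, 10.70 and 10.75 in P2 and 11.58, 11.68 and 11.67 in P3, with the P3 rats above all others. It rose by 0.85 ± 0.07 (adjusted p = 1.76e-05) in P3 versus Fed and by 0.95 ± 0.07 (adjusted p = 3.31e-05) in P3 versus P2, and its P2 value was -0.10 ± 0.07 (adjusted p = 0.432). Mcoln1, the calcium channel of the lysosomal membrane, had no call, at 0.24 ± 0.11 (adjusted p = 0.235) in P2 and 0.17 ± 0.11 (adjusted p = 0.285) in P3 versus Fed.

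Subunits of the proton pump moved in both directions, though the share called lower in P3 versus Fed (13.3%) was under that of all genes (17.1%). In the V0 part, Atp6v0a1, the a subunit through which protons pass the membrane, had log2 intensities of 8.37, 8.54 and 8.44 in the fed rats, 8.56, 8.89 and 8.77 in P2 and 9.37, 9.47 and 9.49 in P3. It rose by 0.99 ± 0.10 (adjusted p = 6.24e-05) in P3 versus Fed and by 0.70 ± 0.10 (adjusted p = 0.00115) in P3 versus P2. Atp6v0e1, a small subunit of V0, had 7.90, 7.85 and 7.75 in the fed rats, 7.86, 8.13 and 8.06 in P2 and 8.80, 8.68 and 8.81 in P3, with fed and P2 rats overlapping, and rose by 0.93 ± 0.09 (adjusted p = 5.46e-05) in P3 versus Fed. The ring subunits and their neighbor gave no call. Atp6v0b had 9.14, 9.15 and 9.17 in the fed rats, 9.55, 8.97 and 9.10 in P2 and 8.96, 9.13 and 9.03 in P3, with P2 replicate 1 above all others, and a P3 versus Fed value of -0.11 ± 0.13 (adjusted p = 0.594). Atp6v0d1, which joins the ring to the central stalk, had 9.45, 9.28 and 9.55 in the fed rats, 9.78, 9.54 and 9.54 in P2 and 9.42, 9.54 and 9.56 in P3, with overlap of all groups and a P3 versus Fed value of 0.08 ± 0.10 (adjusted p = 0.604), and for Atp6v0c that value was 0.04 ± 0.12 (adjusted p = 0.838).

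In the V1 part, Atp6v1h rose most. Its product, subunit H, links V1 to V0 and restrains free V1 from splitting ATP, as known best from yeast, and its log2 intensities were 8.43, 8.34 and 8.34 in the fed rats, 8.65, 8.89 and 8.93 in P2 and 10.50, 10.54 and 10.42 in P3. The P2 rats lay a little above the fed rats and the P3 rats far above both. The log2 fold change was 0.45 ± 0.09 (adjusted p = 0.0129) in P2 versus Fed, 1.66 ± 0.09 (adjusted p = 7.49e-06) in P3 versus P2 and 2.12 ± 0.09 (adjusted p = 5.11e-07) in P3 versus Fed, or 4.33-fold. The P2 call was lost without Fed replicate 2 or P2 replicate 3 (adjusted p = 0.0519 and 0.0512). Among the stalk subunits, Atp6v1g1 had 10.81, 10.80 and 10.95 in the fed rats, 11.14, 10.81 and 11.06 in P2 and 11.54, 11.62 and 11.50 in P3 and rose by 0.70 ± 0.10 (adjusted p = 0.000512) in P3 versus Fed. Atp6v1c1 had 9.40, 9.41 and 9.36 in the fed rats, 9.62, 9.33 and 9.61 in P2 and 9.81, 10.002 and 9.84 in P3 and rose by 0.49 ± 0.09 (adjusted p = 0.00344) in P3 versus Fed. For both, fed and P2 rats overlapped and P3 rats lay above them. The P3 versus P2 call of Atp6v1c1, at 0.36 ± 0.09 (adjusted p = 0.0284), was lost without P2 replicate 2, P3 replicate 2 or P3 replicate 3 (adjusted p from 0.0613 to 0.0949).

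The stalk subunit Atp6v1e1 went the other way, with 10.40, 10.37 and 10.38 in the fed rats, 10.18, 9.91 and 9.96 in P2 and 9.65, 9.72 and 9.91 in P3. All fasted rats lay below the fed rats, and it fell by 0.62 ± 0.09 (adjusted p = 0.000925) in P3 versus Fed; its P2 call, at -0.37 ± 0.09 (adjusted p = 0.0431), was lost without any 1 of the fed arrays, P2 replicate 2 or 3, or P3 replicate 2 (adjusted p from 0.0612 to 0.136). Atp6v1a, the subunit that carries the ATP-splitting site, was lowest in P2, with 8.86, 8.77 and 8.80 in the fed rats, 7.62, 8.32 and 8.12 in P2 and 8.39, 8.61 and 8.45 in P3. P2 replicate 1 was the lowest of the 9 rats, and no groups overlapped. It fell by 0.79 ± 0.16 (adjusted p = 0.0165) in P2 versus Fed, and its P3 versus Fed value was -0.33 ± 0.16 (adjusted p = 0.172). A second probe set of Atp6v1a, with a lower mean intensity, fell by 0.66 ± 0.11 in P2 versus Fed (adjusted p = 0.00845) and by 0.38 ± 0.11 in P3 versus Fed (adjusted p = 0.0367). The P2 call of the brighter probe set was lost without any 1 of the fed arrays (adjusted p from 0.0538 to 0.0581); it gained a P3 versus Fed call without P2 replicate 1 (adjusted p = 0.021) and a P3 versus P2 call without P2 replicate 2 (adjusted p = 0.025).

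Atp6v1b2, the partner of the A subunit in the hexamer, was higher in P3 than in P2 by 0.41 ± 0.08 (adjusted p = 0.00987), and its P3 versus Fed value was 0.20 ± 0.08 (adjusted p = 0.119). Of the rotor subunits, Atp6v1f had a P3 versus Fed value of 0.40 ± 0.13 (adjusted p = 0.0407), a call that leaving out any 1 of 6 arrays ended (each fed array, P2 replicate 3, P3 replicate 2 or P3 replicate 3), and Atp6v1d a value of 0.20 ± 0.14 (adjusted p = 0.361). The accessory proteins moved in opposite directions. Atp6ap2, also known as the prorenin receptor, had 7.35, 7.29 and 7.33 in the fed rats, 7.44, 7.72 and 7.61 in P2 and 8.87, 8.93 and 8.96 in P3. P3 rats lay far above the others, with an SD of 0.05; it rose by 1.59 ± 0.08 (adjusted p = 1.58e-06) in P3 versus Fed and by 1.33 ± 0.08 (adjusted p = 1.63e-05) in P3 versus P2. Atp6ap1, also called Ac45, had 10.08, 10.20 and 10.17 in the fed rats, 9.998, 9.95 and 9.83 in P2 and 9.54, 9.65 and 9.76 in P3 and fell by 0.50 ± 0.08 (adjusted p = 0.00152) in P3 versus Fed. Without P2 replicate 1, P2 versus Fed calls appeared for Atp6ap2 and Atp6v0a1 (adjusted p = 0.0208 and 0.0255), and without P3 replicate 3 a P3 versus P2 call for Atp6ap1 (adjusted p = 0.0455).

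**Figure D4:**
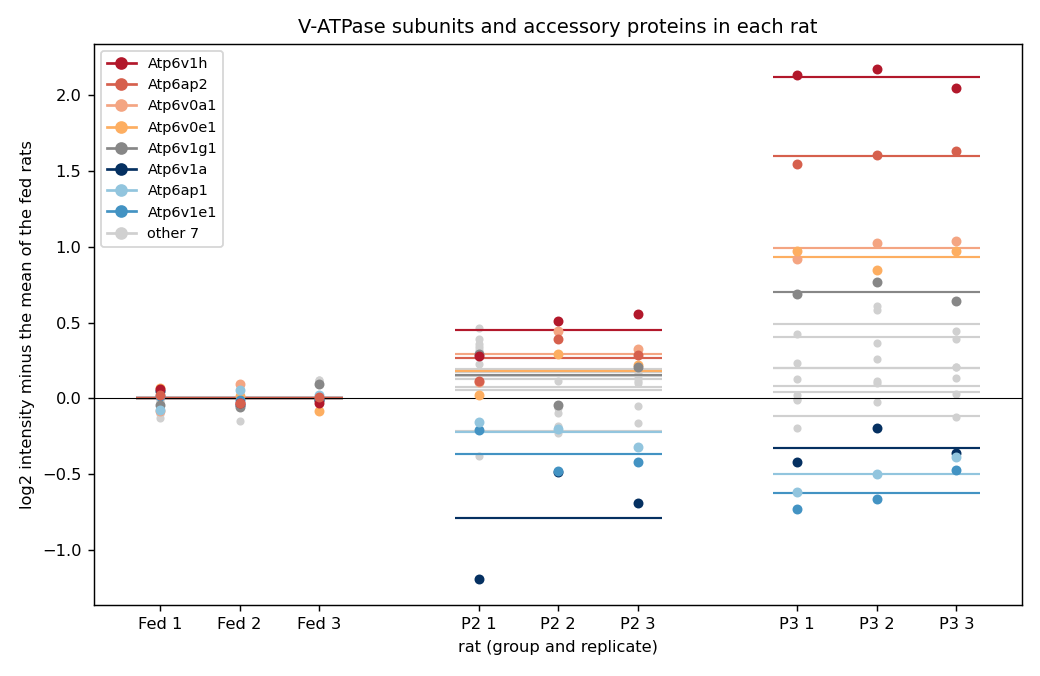
Log2 intensity of 15 V-ATPase genes in each rat (x axis) minus the gene's mean in the fed rats (y axis); lines are group means over 3 rats. In P3 versus Fed, Atp6v1h lies at 2.12, Atp6ap2 at 1.59 and Atp6v1e1 at -0.62, and Atp6v1a is lowest in P2 replicate 1.

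Within groups, rats were alike in the middle of the list and differed in single genes. The median difference of the 45 genes from their means in fed rats was -0.04, -0.02 and 0.08 in the fed rats, 0.19, 0.12 and 0.14 in P2 and 0.12, 0.26 and 0.19 in P3. For the membrane proteins alone it was 0.44, 0.35 and 0.18 in P2 and 1.17, 1.65 and 1.14 in P3, so each P3 rat lay above each P2 rat. For the V-ATPase it was 0.23, -0.06 and 0.14 in P2 and 0.13, 0.37 and 0.21 in P3, with overlap between the phases. These medians are descriptions and were given no test.

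Other genes of the lysosome, a list of 90 of which 71 were measured, were set beside the members. In P3 versus Fed, 18 were higher (25.4%) and 16 lower (22.5%), beside 18.2% and 17.1% of all 14506 genes, and the median log2 fold change was -0.02. In P2 versus Fed 5 were higher (7.04%, beside 7.07% of all genes) and 4 lower (5.63%, beside 5.57%), shares at the background. A further 21 genes were hydrolases, apart from the activator protein Gm2a and the sulfatase-modifying enzyme Sumf1. Of these 21, 3 were higher (14.3%) and 7 lower (33.3%, Gm2a among them) in P3 versus Fed. Smpd1, the acid sphingomyelinase, fell by 0.64 ± 0.07 (adjusted p = 0.00117) in P2 and by 1.11 ± 0.07 (adjusted p = 6.57e-06) in P3 versus Fed, and Arsb, an arylsulfatase that acts on matrix sugars, by 1.45 ± 0.36 (adjusted p = 0.0137) in P3. Arsb varied between the P3 rats, with 7.65, 6.43 and 6.31, and its second probe set is not reported here. In P3 versus Fed, Plbd2 rose by 0.75 ± 0.15 (adjusted p = 0.00408), Galc by 0.61 ± 0.14 (adjusted p = 0.0114) and Pla2g15 by 0.29 ± 0.065 (adjusted p = 0.00803). Of 3 inhibitors of cathepsins, Cst3, the secreted cystatin C, rose by 0.81 ± 0.11 (adjusted p = 0.00221) in P2 and by 0.93 ± 0.11 (adjusted p = 0.000173) in P3, and Cstb by 0.34 ± 0.10 (adjusted p = 0.0358) in P3 versus Fed.

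Among 15 further membrane proteins, 4 were called higher in P3 than in fed rats (26.7%, beside 18.2% of all genes) and 3 lower (20%, beside 17.1%). Slc17a5, the exporter of sialic acid, rose by 1.31 ± 0.15 (adjusted p = 0.000157) and Ostm1, the partner of the chloride transporter of lysosomes, by 1.29 ± 0.16 (adjusted p = 0.000282), whereas Abcb9, a peptide transporter, fell by 1.4 ± 0.10 (adjusted p = 8.35e-06). Of 11 genes that sort proteins to lysosomes, 5 were higher (45.5%) and 2 lower (18.2%). Sort1, the sortilin receptor, rose by 1.17 ± 0.12 (adjusted p = 8.85e-05) and Ap3b1, of the AP-3 adaptor, by 0.85 ± 0.11 (adjusted p = 0.000386), and Gga2, an adaptor at the Golgi, fell by 0.64 ± 0.10 (adjusted p = 0.00127). Of 15 other pump subunits and factors of its assembly, 2 were higher and 2 lower (13.3% each way), no more than the background: the assembly factor Ccdc115 rose by 1.28 ± 0.10 (adjusted p = 1.35e-05), and Oxr1, a protein with the TLDc domain, and Tcirg1, the a3 subunit known from osteoclasts, fell by 0.62 ± 0.10 (adjusted p = 0.00148) and by 0.48 ± 0.08 (adjusted p = 0.00122). The largest decreases of this list were in regulators. Rragd, a Rag GTPase that recruits mTORC1 to the lysosome, fell by 2.03 ± 0.15 (adjusted p = 1.12e-05) in P3 versus Fed. Flcn, folliculin, which acts on the Rag GTPases, rose by 0.75 ± 0.08 (adjusted p = 9.77e-05), and Xpo1, a nuclear exporter, fell by 1.78 ± 0.21 (adjusted p = 0.000196).

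Several of these genes are also known from macrophages, osteoclasts or fibroblasts, so markers of other cells were set beside them. The 9 arrays had medians from 5.80 to 5.90 and correlated across probe sets at 0.987 to 0.994 within groups. Ckm, the creatine kinase of muscle, had 13.57, 13.56 and 13.57 in the fed rats, 13.61, 13.53 and 13.54 in P2 and 13.50, 13.41 and 13.46 in P3. In P3 versus Fed, 2 of 10 fiber markers were lower (20%), near the 17.1% of all genes. Of 15 macrophage markers, 1 was higher in P3 versus Fed (6.67%, beside 18.2% of all genes), Cd163, at 1.4 ± 0.33 (adjusted p = 0.0108). Another 2, Aif1 and Mpeg1, were lower (13.3%, beside 17.1%), and none of the 15 was called in P2. The summed linear intensity of the 15 was 1396 to 2284 in the fed group, 1556 to 2119 in P2 and 1342 to 2213 in P3. Cd68 had 5.93 ± 0.48, 5.90 ± 0.21 and 5.71 ± 0.29 on the log2 scale in Fed, P2 and P3. All 3 measured osteoclast markers (Acp5, Calcr and Mmp9) and all 7 neutrophil markers lay below the array median in every rat. Of 10 fibroblast markers, 8 were lower in P3 versus Fed (80%, beside 17.1% of all genes). Pdgfra had no call, at -0.39 ± 0.29 (adjusted p = 0.377), nor had Dcn, at 0.39 ± 0.15 (adjusted p = 0.0924). The summed intensity of the 10 was 16269 to 18403 in the fed group, 6969 to 12969 in P2 and 4587 to 7183 in P3. Col1a1 and Col1a2 were the brightest of them in the fed rats, at 12.46 and 12.03, and weigh most in that sum. Col1a1 fell by 4.18 ± 0.57 (adjusted p = 0.000487) in P3 versus Fed. Of 7 endothelial markers, 1 was higher in P3 versus Fed (Pecam1, 14.3%, beside 18.2% of all genes) and 0 lower. The part of fibroblasts in the decreases of Ctsh, Ctsc, Gla, Lipa and Gusb was not tested. The part of macrophages in the increase of Gpnmb was not tested either.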

How the data were processed

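TIB RNA of 3 Fed, 3 P2 and 3 P3 rats was hybridized to 1 array each. The authors deposited log2 intensities made with RMA (background correction, quantile normalization, probe summary by median polish) in Affymetrix Expression Console 1.1, per the labels; these values were used as they are. That normalization gives all arrays alike distributions, so a shift of all transcripts at once would not show. The genome build behind the probe sets is not given in the sources used here. Of 29215 probe sets, 15310 have 1 symbol in the platform annotation, and the one with the highest mean stands for its gene. Of the 45 measured genes only Atp6v1a has a second one. Among the other lysosomal genes, Arsb, Rnaset2, M6pr and Rnasek have 2 each, and only the brighter is reported.

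A model with 1 mean per group was fitted with limma 3.58.1 in R 4.3.3 (lmFit, eBayes with 2.87 prior degrees of freedom), both fasting phases were set against Fed and P3 also against P2, and p-values were adjusted by Benjamini-Hochberg over all probe sets. The fit was tested on simulated data. With 3 arrays a group, their number limits the precision. Genes named with values in each rat were up to 4 per role with the largest P3 versus Fed change, the 5 largest changes in each of the other comparisons, and up to 8 lower ones. Ctsb, Ctsd, Lamp1 and Scarb2 were added after their values were seen. Of the other lysosomal genes, up to 3 called in P3 versus Fed per role are named, with Galc and Pla2g15 added after their values were seen. Members and lists were chosen with earlier results of these data known. Alternatives were a second quantile normalization, subtraction of array medians, a filter, trended robust moderation, only the groups compared, a replicate block, the ANOVA and Tukey test of the methods, the mean of a gene's probe sets, and each array left out in turn. Promoters are from RefSeq (GRCr8). Figures used Python 3.11.15 and matplotlib 3.10.9. The other muscles and assays of the study are not analysed here.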

Additional observations from a re-analysis of the deposited data

Results flagged for a closer look

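The changes in P2 and in P3 against the same fed rats differed for 19 of the 45 measured genes by the direct limma comparison of P3 with P2 (adjusted p under 0.05 over 29215 probe sets, 3 rats per group). In that comparison 35.6% of the 45 were higher, beside 11.4% of all 14506 genes. Lower genes made up 6.67% of the 45, under the 10.4% of all genes. The P3 versus P2 log2 fold change was positive for 16 genes: Gpnmb (3.50), Atp6v1h (1.66), Atp6ap2 (1.33), Npc1 (1.17), Lgmn (1.07), Ctsl (1.06), Scarb2 (0.95), Cd63 (0.85), Lamp2 (0.78), Atp6v0e1 (0.75), Atp6v0a1 (0.70), Gaa (0.69), Mitf (0.66), Atp6v1g1 (0.55), Atp6v1b2 (0.41) and Atp6v1c1 (0.36). It was negative for 3 genes: Ctsc (-0.80), Tfeb (-0.54) and Gusb (-0.32). For Atp6v1b2, this difference passed although neither phase had a call against fed rats, with values of -0.21 ± 0.08 in P2 and 0.20 ± 0.08 in P3. Ctsc had a P2 value of 0.33 ± 0.09 and a P3 value of -0.47 ± 0.09 against fed rats, on either side of 0. Groups of 3 rats are too small for a test of single outlying rats.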

How the results depend on the processing

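Among the 45 genes, 18 were called higher and 8 lower in P3 versus Fed, and leaving out single arrays gave 17 to 19 higher and 8 to 9 lower. In P2 versus Fed, 7 and 2 became 4 to 9 and 0 to 2, and in P3 versus P2, 16 and 3 became 15 to 16 and 1 to 4. With the ANOVA and Tukey test of the study's methods at p under 0.001 the counts were 3 higher and 0 lower in P2, 13 and 0 in P3 (both against Fed), and 10 and 1 between the phases; that test also leaves out limma's moderation and the adjustment over probe sets. The 2 genes lower in P2 became 4 with array medians subtracted, 3 with quantile normalization once more, 3 with a filter at a mean log2 of 5 and 0 with only the 2 groups compared. The 3 genes lower in P3 than in P2 became 5 with quantile normalization once more and 6 with the filter. With the replicate number as a replicate block, P2 versus Fed gave 5 higher and 1 lower, P3 versus Fed 17 and 8, and P3 versus P2 15 and 2. Deviations of same-numbered arrays of different groups from their group means correlated at -0.24 to 0.12, and those of differently numbered arrays at -0.16 to 0.305. With 3 arrays per group, these ranges do not settle whether the numbers pair the rats. Of 1428 refits of 84 fold changes of 28 genes, 1335 stayed on the same side of the threshold, 66 lost a call and 27 gained one. None turned a called direction, but many refits change the test and not the fold change, so they could not turn it. Among these are the filter, the moderation, the replicate block and the ANOVA and Tukey test. The 28 genes were named by the size of their changes, so they do not stand for all 45. The 3 arrays per group limit the precision. The causes of these shifts were not tested.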
